A study of Mus musculus with 40 samples.

Results

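Liver transcripts of 9 genes of the bile duct epithelium and the ductular reaction were followed after small bowel resection (SBR). They were chosen by name, as the rows of *Krt7*, *Krt19*, *Krt8*, *Krt18*, *Krt23*, *Epcam*, *Sox9*, *Cd24a* and *Spint1*, and make up 9 of the 15958 genes in the table. All 9 passed the filter on low values. RNA sequencing of total RNA depleted of ribosomal RNA was available for 40 libraries, of which 18 were from the liver (the right part of the median lobe) and 22 from the duodenum and ileum. The mice were wild-type C57BL/6 males operated at 8 weeks of age. The liver groups were 5 mice with sham surgery given vehicle, 8 mice with SBR given vehicle, and 5 mice with SBR given WUSTL0717, a gut-restricted agonist of the liver X receptors (LXRs), nuclear receptors that sense oxysterols. WUSTL0717 was dosed at 30 mg/kg daily by mouth, beginning 3 weeks after surgery and lasting 7 weeks, and the sham mice carried vehicle over the same period. No sham group received WUSTL0717, so an effect of the compound without resection could not be measured. The labels describe removal of 50 to 60% of the small bowel, and the methods of the study describe a larger proximal resection. The comparison of SBR vehicle with sham asks what resection does to these transcripts, and that of WUSTL0717 with vehicle after SBR asks what the compound does to them in resected mice.

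Cholangiocytes, the epithelial cells that line bile ducts, build their intermediate filaments from the keratins KRT7 and KRT19 together with KRT8 and KRT18, whereas hepatocytes carry KRT8 and KRT18 alone. In cholestatic and fibrotic liver disease, small ductules of cells with cholangiocyte features multiply at the edge of the portal tract, a response called the ductular reaction. Its cells carry the adhesion molecule EpCAM, the transcription factor SOX9 and the surface sialoglycoprotein CD24, and hepatocytes under cholestatic stress can also gain some of these proteins. In RNA of whole liver tissue, more cells of a type cannot be told apart from more RNA in each cell.

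The keratin genes lie in 2 clusters, given here in GRCm38 coordinates of GENCODE M21. The type II keratins *Krt7* (chr15:101411043-101430313, plus strand) and *Krt8* (chr15:101996698-102004482, minus strand) share chromosome 15 with *Krt18* (chr15:102028180-102032027, plus strand), and 23697 bases separate *Krt8* from *Krt18*. The type I keratins *Krt23* (chr11:99477974-99493137, minus strand) and *Krt19* (chr11:100140810-100148665, minus strand) lie on chromosome 11, as does *Sox9* (chr11:112782224-112787760, plus strand). *Epcam* is at chr17:87635979-87651129, *Cd24a* at chr10:43578284-43584265 and *Spint1* at chr2:119237362-119249527, all on the plus strand.

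Promoter windows (250 bases before to 50 after a RefSeq transcript start, GRCm38.p6) were found for 6 of the 9 genes. Stretches of 120 bases that no GENCODE exon of the gene overlaps are shown for *Epcam* and *Spint1*, which had the largest rise and the smallest p after SBR among the 9 genes, and for *Krt18* and *Krt23*, keratins of the same type of which the second alone passed the test with WUSTL0717. Capitals mark GGGCGG, the GC box, or its complement CCGCCC.
Epcam (chr17:87635859-87635978, plus strand): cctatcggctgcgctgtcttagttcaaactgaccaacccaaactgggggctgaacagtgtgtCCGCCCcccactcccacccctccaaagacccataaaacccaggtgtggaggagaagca
Spint1 (chr2:119237240-119237359, plus strand): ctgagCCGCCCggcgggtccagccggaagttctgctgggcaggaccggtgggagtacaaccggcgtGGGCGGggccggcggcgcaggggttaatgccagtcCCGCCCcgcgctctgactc
Krt18 (chr15:102028060-102028179, plus strand): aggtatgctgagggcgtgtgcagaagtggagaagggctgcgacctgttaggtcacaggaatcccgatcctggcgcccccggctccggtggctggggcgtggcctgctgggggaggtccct
Krt23 (chr11:99493138-99493257, minus strand): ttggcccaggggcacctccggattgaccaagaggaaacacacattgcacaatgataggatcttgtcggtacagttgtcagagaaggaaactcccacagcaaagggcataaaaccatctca
The 7 motifs below were searched on both strands of the whole windows. GGGCGG stood in the windows of 3 of the 6 genes (*Epcam*, *Krt7* and *Spint1*) and in 35.7% of all 32851 promoter windows. TATAAA was found in *Krt8* alone (13.6% of all windows), CCAAT in *Spint1* (37.4%), TGGGAA in *Krt8* (25.6%) and TGANTCA, a site shape bound by AP-1 factors, in *Spint1* (7.81%). All sites in *Krt7* and *Krt8* and the CCAAT of *Spint1* overlapped GENCODE exons of the gene itself. AACAAT, the core of SOX sites (10.7% of all windows), and GGAATG, the core of TEAD sites (14.7%), were in none of the 6 windows, which says only that these letters are not there.

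The values are log2 TPM (a read count scaled for transcript length and library size) after the authors' batch correction, in which the intestinal libraries formed batch 1 and the liver libraries batch 2. The correction set the tissues to near-equal levels, so that the hepatocyte gene *Alb* averaged 9.35 in liver and 8.27 in intestine, and the levels of the 9 genes were therefore compared between liver groups only. For these genes, the liver mean lay 0.18 to 0.75 log2 units from the intestinal mean. Their SD over the liver libraries was 0.54 to 1.21 times that over the intestinal libraries. Whether the correction also rescaled the spread of each gene is not known. Differences, folds and their order by size are therefore those of the corrected values, and may differ from those before correction. Library medians ranged from 3.06 to 3.37 in sham, 3.14 to 3.78 in SBR vehicle and 3.44 to 3.74 in SBR WUSTL0717 livers. The number of reads behind a value is unknown. SBR vehicle library 7 stood apart, with a summed TPM of 3361 over 7 pancreatic enzyme genes against 26.1 to 30.3 in the other 17 libraries, so counts are also given without it.

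All 9 genes rose in the liver after SBR. Each had an adjusted p below 0.05 (limma over 15901 genes, Benjamini-Hochberg), against 37.4% of all genes called higher and 4.47% called lower, and the rises ran from 1.25 to 2.68 log2 units. Because library medians also moved, with a median difference over all genes of 0.25, the test was repeated after centring each library on its median. All 9 were again called, with rises of 0.94 to 2.37, where 20.4% of all genes were called higher and 28.8% lower. In each of the 9 genes, every SBR vehicle library lay above every sham library, a separation seen upward in 15.6% of all genes.

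Among the duct keratins, *Krt7*, a type II keratin of cholangiocytes, read 2.01, 1.95, 2.00, 2.34 and 2.04 log2 TPM in the 5 sham livers. The SBR vehicle livers ranged from 3.37 to 4.16 with a median of 3.75, so the lowest of them was over 1 unit above the highest sham liver. The rise was 1.65 ± 0.18 (SE), or 3.14-fold (adjusted p = 1.28e-06). *Krt19*, the type I partner, read 5.53, 4.82, 5.46, 6.60 and 5.15 in sham livers and from 7.15 to 8.23 (median 7.65) in SBR vehicle livers. Sham library 4 was well above the other sham livers but still below all SBR vehicle livers. The rise of *Krt19* was 2.14 ± 0.28, or 4.41-fold (adjusted p = 8.35e-06).

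The keratin pair shared with hepatocytes rose as well. *Krt8* read 9.54, 8.99, 9.26, 9.72 and 9.60 in sham livers and 10.32 to 11.48 (median 11.12) in SBR vehicle livers, a rise of 1.64 ± 0.21 (adjusted p = 4.5e-06). *Krt18* read 8.04, 7.50, 7.99, 8.04 and 7.84 in sham livers and 8.44 to 9.61 (median 9.15) in SBR vehicle livers, and its rise of 1.25 ± 0.18 was the smallest of the 9 (adjusted p = 2.61e-05). In both genes SBR vehicle library 2 was the lowest of its group and still lay above all sham livers. *Krt8* has 1 named pseudogene in GENCODE, and only reads that aligned to a single place were counted. *Krt23*, a type I keratin expressed in simple epithelia, read 2.36, 1.85, 2.16, 2.37 and 2.11 in sham livers and 3.47 to 4.27 (median 3.99) in SBR vehicle livers. No values of the groups overlapped, and the rise was 1.77 ± 0.18, or 3.40-fold (adjusted p = 4.28e-07).

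The surface proteins moved furthest. *Epcam*, which encodes a homophilic adhesion molecule of epithelia, read 5.05, 4.64, 4.89, 5.63 and 4.96 in sham livers. In SBR vehicle livers it lay between 7.16 and 8.24 (median 7.79), a rise of 2.68 ± 0.24 or 6.40-fold (adjusted p = 1.11e-07). *Cd24a* read 3.28, 2.98, 3.46, 3.92 and 3.49 in sham livers and 5.45 to 6.48 (median 6.05) in SBR vehicle livers. Its lowest SBR vehicle liver was above its highest sham liver by more than the whole sham range, and the rise was 2.59 ± 0.24 or 6.02-fold (adjusted p = 1.53e-07).

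*Sox9*, the transcription factor that marks biliary and progenitor cells, read 3.03, 2.25, 3.04, 2.71 and 3.04 in sham livers and 4.26 to 5.00 (median 4.65) in SBR vehicle livers. It rose by 1.82 ± 0.18, or 3.54-fold (adjusted p = 3.17e-07). *Spint1*, which encodes HAI-1, a membrane-bound Kunitz inhibitor of the serine proteases matriptase and HGF activator, had the tightest sham group, with values of 3.98, 3.84, 4.17, 4.03 and 4.06. After SBR it lay between 5.94 and 6.61 (median 6.32), a rise of 2.25 ± 0.16 or 4.75-fold (adjusted p = 1.43e-08). By p, *Spint1* ranked 20 of the 15901 genes and the other 8 ranked between 119 and 1136. The exact two-sided permutation test gave each of the 9 genes p = 0.000777, the smallest that 8 against 5 libraries allow (0.00191 after adjustment over the 27 such tests made). All 9 calls held in each fit with 1 library left out, including SBR vehicle library 7, where 5399 to 9010 of all genes were called. The labels name mice by group and number only, so p-values describe the spread between these libraries.

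**Figure D1:**
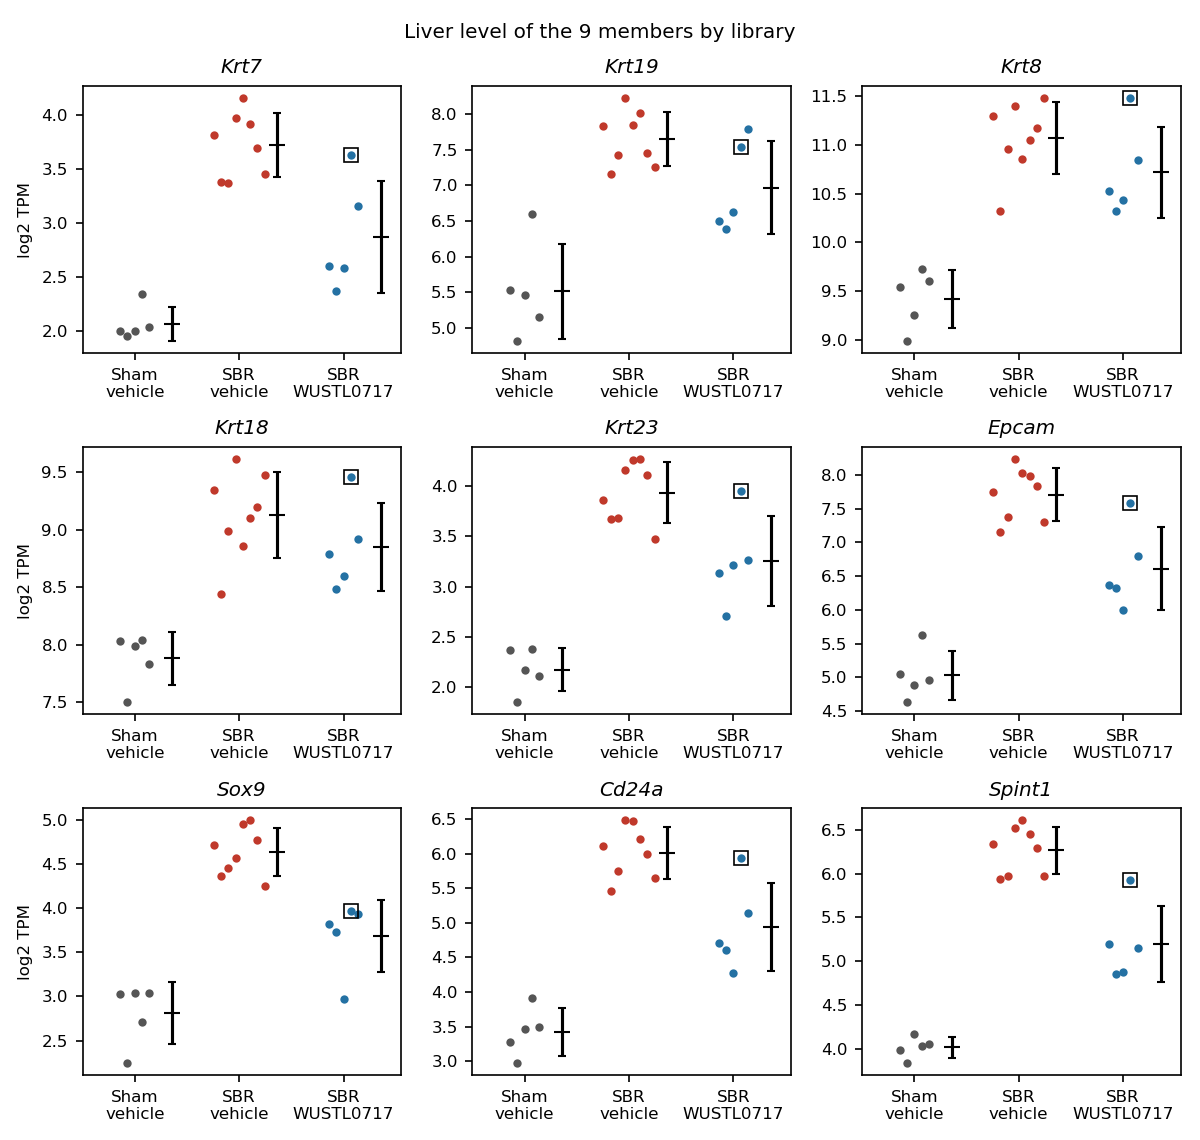
Liver log2 TPM of each of the 9 genes, with 1 point per library in the sham vehicle (n = 5), SBR vehicle (n = 8) and SBR WUSTL0717 (n = 5) groups, bars for mean ± SD, and axes that do not start at 0; the square marks WUSTL0717 library 4. All SBR vehicle points lie above all sham points, and the marked library is the highest of the treated livers in 8 of the 9 panels.

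With WUSTL0717, 6 of the 9 genes fell relative to vehicle after SBR, where 2.66% of all genes were called lower and 1.44% higher, and the other 3, *Krt19*, *Krt8* and *Krt18*, did not pass the test. All 9 differences were negative, between -0.28 and -1.10, while the median over all genes was 0.02. Relative to the library median the same count of 6 was called, against 8.19% of all genes called lower and 11.5% higher. The median of the 9 differences was -0.85 on the log2 TPM scale and -0.84 relative to the library median.

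*Spint1* read 5.20, 4.85, 4.88, 5.92 and 5.15 in the 5 treated livers, all below the lowest SBR vehicle liver (5.94). Library 4 missed the vehicle range narrowly and the other 4 by a wide margin. The fall was -1.06 ± 0.16 (adjusted p = 0.00322), and *Spint1* ranked 11 of all genes by p, or 1 relative to the library median. *Sox9* read 3.83, 3.73, 2.97, 3.96 and 3.94 in treated livers, also all below the vehicle range, with a difference of -0.95 ± 0.18 (adjusted p = 0.0092). Treated library 3 reached the sham range and the others stood between the sham and SBR vehicle groups. Such separation downward was seen in 0.308% of all genes. For both genes the exact permutation p was 0.000777, the smallest possible.

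*Epcam* read 6.36, 6.32, 6.00, 7.59 and 6.79 in treated livers, and *Cd24a* read 4.71, 4.61, 4.28, 5.93 and 5.15. In both, library 4 lay inside the SBR vehicle range and the other 4 treated livers lay between the vehicle and sham ranges. *Epcam* fell by 1.10 ± 0.24 (adjusted p = 0.0167) and *Cd24a* by 1.08 ± 0.24 (adjusted p = 0.0175). *Krt7* read 2.60, 2.37, 2.59, 3.63 and 3.16 and fell by 0.85 ± 0.18 (adjusted p = 0.0169), and *Krt23* read 3.14, 2.70, 3.21, 3.96 and 3.27 and fell by 0.68 ± 0.18 (adjusted p = 0.0372). These 2 keratins had the same layout, with library 4 alone in the vehicle range.

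*Krt19* read 6.50, 6.39, 6.62, 7.54 and 7.80 in treated livers, with libraries 4 and 5 inside the vehicle range and libraries 1 and 2 inside the sham range, whose upper end is set by sham library 4. Its difference was -0.68 (95% interval -1.28 to -0.09, adjusted p = 0.209), as large as that of *Krt23* but with a wider spread. *Krt8* read 10.53, 10.32, 10.44, 11.48 and 10.84 and *Krt18* 8.79, 8.48, 8.60, 9.46 and 8.92. On the log2 TPM scale, no treated liver lay below the SBR vehicle range in either gene. For *Krt18* all 5 lay within it, and for *Krt8* treated library 4 stood just above it (11.4811 against 11.4795). The intervals of their differences were -0.78 to 0.09 for *Krt8* (adjusted p = 0.428) and -0.66 to 0.11 for *Krt18* (adjusted p = 0.49), which leave room for a fall of up to 0.78 and 0.66 units. After centring on the library median, 3 treated livers lay between the vehicle and sham ranges for *Krt8* and 1 for *Krt18*. The limma intervals were then -0.67 to -0.01 for *Krt8* (adjusted p = 0.138) and -0.547 to -0.0009 for *Krt18* (adjusted p = 0.152).

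On the log2 TPM scale, which genes were called with WUSTL0717 rested on few livers. Leaving out treated library 1, 2 or 3 left 2 of 9 genes called, *Sox9* and *Spint1* each time. *Krt7*, *Krt23*, *Epcam* and *Cd24a* then had adjusted p between 0.0581 and 0.135. Calls over all 15901 genes fell as well in these fits, from 652 to 176, 113 and 93. Relative to the library median, 6 of 9 stayed called in each, where 2434, 2395 and 2171 of all genes were. Without treated library 4, 6 of 9 were called on the log2 TPM scale (1075 of all genes). Relative to the library median 9 of 9 then were (3692 of all genes). Without SBR vehicle library 7, 5 of 9 were called (462 of all genes), *Krt23* being lost (adjusted p = 0.0684). It was lost in 9 of the 13 fits with 1 library left out. Under an unmoderated two-sample test with a pooled spread, a kind of test that the study used, 0 of the 9 genes and 0 of 15901 passed adjustment, with 7 of 9 and 2223 of 15901 at an unadjusted p under 0.05.

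**Figure D2:**
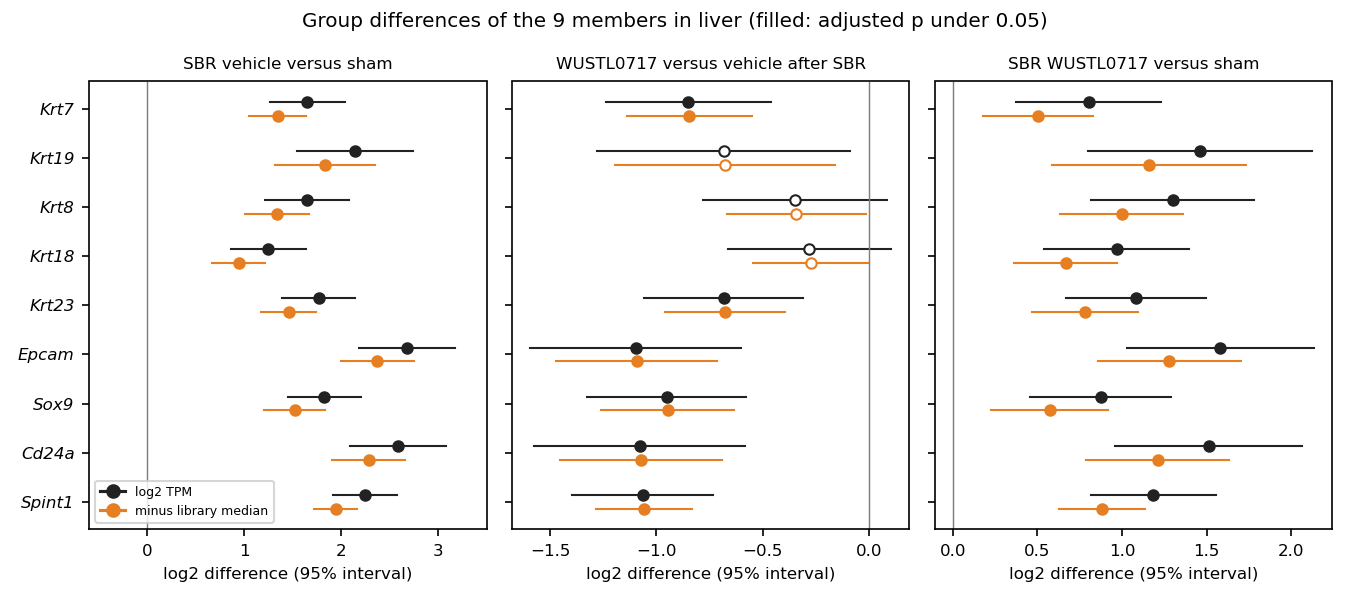
Log2 differences of the 9 genes between liver groups with 95% intervals from limma, on the log2 TPM scale (black) and relative to the library median (orange), for each of 3 comparisons with its own axis range; filled points have an adjusted p below 0.05. Points are filled throughout for both comparisons with sham, and open for Krt19, Krt8 and Krt18 with WUSTL0717.

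The treated livers remained above sham. All 9 genes were called higher in SBR WUSTL0717 than in sham livers (27.9% of all genes were), by 0.80 for *Krt7* to 1.58 for *Epcam*. Relative to the library median all 9 were called too (10.7% of all genes higher and 8.93% lower), by 0.50 to 1.28. In 7 of 9 genes the groups did not overlap (27.4% of all genes upward), the exceptions being *Krt19* (exact permutation p = 0.0238) and *Sox9* (p = 0.0317), and for the other 7 the exact p was 0.00794, the smallest that 5 against 5 allow. Without treated library 4, 9 of 9 were called on the log2 TPM scale (2456 of all genes). Relative to the library median 7 of 9 then were, and the share over all genes there is not given here. The comparisons share libraries, so the values stand side by side: the median of the 9 genes was 1.82 above sham with vehicle and 1.18 above sham with WUSTL0717.

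Between livers of a group, the 9 genes tended to be high or low together. Sham library 2 was the lowest sham liver in 9 of 9 genes and sham library 4 the highest in 7. Treated library 4 was the highest treated liver in 8, with the median gene 1.91 above the sham mean, against 0.86 to 1.14 in the other 4 treated livers and 1.55 to 2.19 in the SBR vehicle livers. These libraries also differed in their medians, 3.06 for sham library 2 against 3.23 to 3.37 in the other sham livers and 3.74 for treated library 4 against 3.44 to 3.57 in the other treated livers. Relative to the library median, the median gene of treated library 4 stood at 1.42, and those of the other treated livers at 0.65 to 0.85. The part of the library median in these differences was not tested.

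After subtracting library medians and group means, Pearson correlations over the 18 livers ranged from -0.14 to 0.96 in the 36 pairs of genes, with a median of 0.41. *Epcam* and *Cd24a* varied most closely together (0.96), then *Krt8* and *Krt18* (0.90). *Sox9* followed the others least, with 0.41 for *Spint1*, 0.21 for *Krt7*, -0.07 for *Krt8* and -0.14 for *Krt18*. The pairs share libraries and are given as a description.

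**Figure D3:**
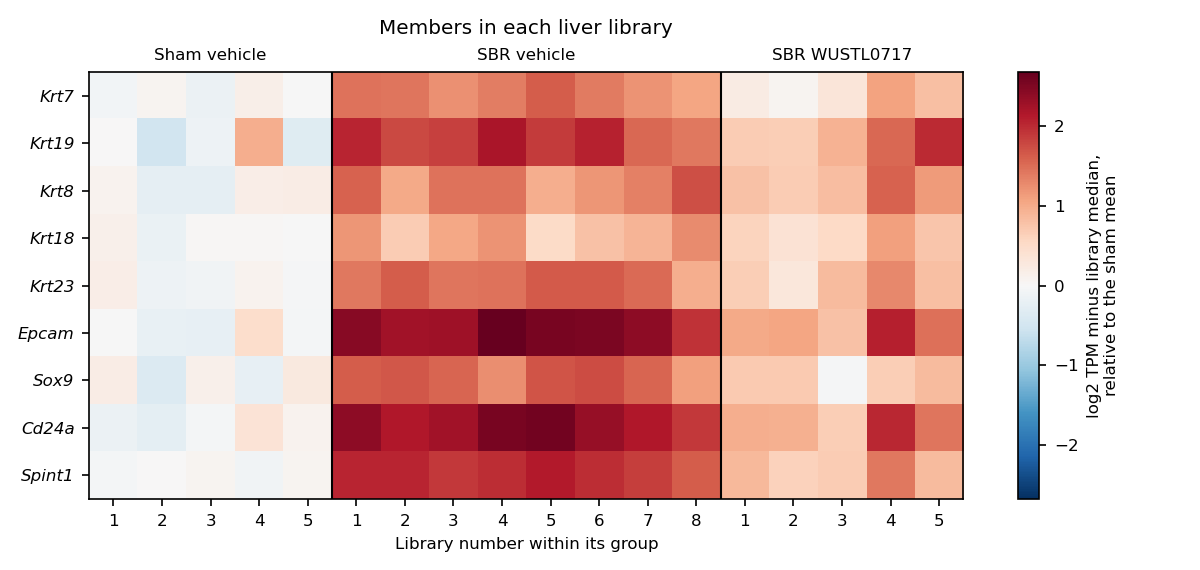
Each of the 18 liver libraries (columns, by group and number) and each of the 9 genes (rows), coloured by log2 TPM minus the library median, relative to the sham mean of that gene (red higher, blue lower). The SBR vehicle block is red throughout, and treated libraries 1, 2 and 3 are all below libraries 4 and 5 in 6 of the 9 rows; treated library 4 has a median of 1.42 and the other treated libraries 0.65 to 0.85.

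Pairs of keratins were also compared inside each library, where the library median cancels. A rescaling of single genes by the batch correction, which is not known, would not cancel, so these are differences of corrected values. Filaments join type I with type II keratins, and of the pairs compared only *Krt8* with *Krt18* is of that kind. *Krt7* was not compared with *Krt19*. These 9 tests (3 pairs, 3 comparisons) were chosen after the values were seen and were adjusted together. *Krt19* minus *Krt18*, both type I, rose from -2.37 ± 0.53 (SD, n = 5) in sham to -1.48 ± 0.38 (n = 8) in SBR vehicle livers, a difference of 0.89 (exact permutation p = 0.00777, adjusted 0.0238). Sham library 4 lay inside the SBR vehicle range and the other 4 sham livers below it. With WUSTL0717 the value was -1.88 ± 0.45 (n = 5), 0.40 below vehicle (exact p = 0.111), which did not pass. *Krt7* minus *Krt8*, both type II, stood at -7.35 ± 0.22 in sham and -7.35 ± 0.41 in SBR vehicle livers (exact p = 0.974), and at -7.85 ± 0.11 in treated livers. The last was lower than in vehicle by 0.50 (exact p = 0.0233, adjusted 0.042), a call that held in 2 of the 13 fits with 1 library left out, and lower than in sham by 0.50 (exact p = 0.00794, adjusted 0.0238), which held in 10 of 10.

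*Krt8* minus *Krt18*, the filament pair of hepatocytes, was 1.54 ± 0.19 in sham, 1.94 ± 0.07 in SBR vehicle and 1.87 ± 0.11 in treated livers. The step from sham to SBR vehicle was 0.40 (exact p = 0.000777, adjusted 0.00699), with no overlap, and held in 13 of 13 fits with 1 library left out. Treated and vehicle livers differed by 0.07 (exact p = 0.2). The treated livers were 0.33 above sham (exact p = 0.0159, adjusted 0.0357), which held in 6 of 10.

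**Figure D4:**
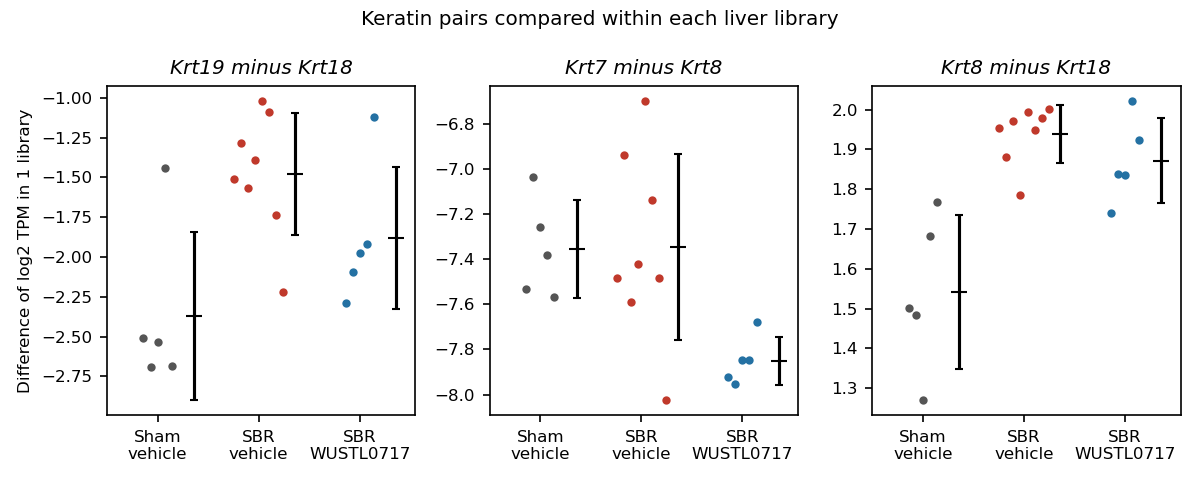
Difference in log2 TPM between 2 keratins of the same library, with 1 point per liver in each group and bars for mean ± SD. Krt19 minus Krt18 and Krt8 minus Krt18 are higher after SBR by 0.89 and 0.40, and Krt7 minus Krt8 is lower in the treated livers by 0.50.

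Other genes of the bile duct epithelium moved the same way. Of 18 tested biliary genes, 17 rose after SBR and 15 did so relative to the library median, the list median being 0.92, against 0.25 over all genes. For this and the lists below, 37.4% of all genes were called higher after SBR and 4.47% lower, or 20.4% and 28.8% relative to the library median. With WUSTL0717, 1.44% were higher and 2.66% lower, or 11.5% and 8.19% relative to the library median. *Spp1*, osteopontin, a matrix protein of cholangiocytes and activated stromal cells, rose by 3.31 (adjusted p = 1.52e-08), *Bicc1*, an RNA-binding protein linked to cystic ducts, by 2.46 (3.12e-08), and *Cldn7* and *Cldn4*, tight junction claudins, by 2.11 (1.95e-07) and 2.49 (3.29e-07). With WUSTL0717, 7 of 18 were lower and 0 higher, with *Cldn4* at -1.34 (adjusted p = 0.0082), *Bicc1* at -1.02 (0.0094), *Pkhd1*, the fibrocystin gene, at -0.90 (0.0151) and *Spp1* at -1.06 (0.0183). Relative to the library median 14 of 18 were lower. *Slc4a2* and *Aqp1*, named after their values were seen, the anion exchanger and water channel of duct secretion, rose by 0.39 and 0.42 after SBR (adjusted p = 0.00477 and 0.025) but not relative to the library median (adjusted p = 0.27 and 0.175).

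Of 12 transcription factors of biliary cells, 8 rose after SBR. The epithelial factor *Ehf* rose by 2.39 (adjusted p = 3.15e-07), *Sox4*, a partner of *Sox9* in duct development, by 2.08 (3.06e-08) and *Grhl2* by 1.02 (3.94e-06). Relative to the library median 7 rose and 3 fell, where 20.4% and 28.8% of all genes did. The 3 that fell were *Foxa1* and *Nr5a2*, factors that hepatocytes also use, and *Onecut2*, all named after their values were seen. With WUSTL0717, 3 of 12 fell, namely *Ehf* by 1.25 (adjusted p = 0.00919), *Sox4* by 0.72 (0.0184) and *Grhl2* by 0.61 (0.0135).

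All 9 tested genes of the ductular injury response rose after SBR, with a list median of 1.27. *Mmp7*, matrilysin, which injured ducts secrete, rose by 4.49 (adjusted p = 2.03e-06), *Lcn2*, a siderophore-binding acute-phase protein, by 3.17 (4.83e-06), *Tnfrsf12a*, the TWEAK receptor, by 2.20 (5.76e-06), and *Ncam1*, an adhesion molecule of reactive ductules, by 1.27 (3.36e-06). With WUSTL0717, 2 of 9 fell, *Mmp7* by 2.50 (adjusted p = 0.0146) and *Ncam1* by 0.79 (0.0116), and 6 of 9 fell relative to the library median. *Lcn2* differed by -1.30 (adjusted p = 0.0758). Against sham, the treated livers were higher in 13 of 18 biliary genes, 6 of 12 biliary transcription factors and 7 of 9 injury response genes, where 27.9% of all genes were. Relative to the library median, where 10.7% of all genes were higher and 8.93% lower, these counts were 10 of 18, 3 of 12 with 2 lower, and 4 of 9.

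Among other keratins and desmosomal genes, 10 of 10 rose after SBR, by a median of 0.52, and 6 of 10 rose relative to the library median, led by *Evpl*, envoplakin (1.28, adjusted p = 4.62e-06). The only keratin among them was *Krt20*, named after its values were seen, as the other keratins listed had no values. *Krt20* rose by 0.27 (adjusted p = 0.0314) but not relative to the library median (-0.04, adjusted p = 0.755). With WUSTL0717 *Evpl* alone was lower (-0.61, adjusted p = 0.0377). Of 10 genes of the protease network around *Spint1*, 5 rose and 2 fell after SBR, against 37.4% and 4.47% of all genes. After centring each library on its median, 5 rose and 4 fell, with a list median of 0.07. *St14*, which encodes matriptase, rose by 1.95 (adjusted p = 1.04e-07), the serine protease *Tmprss2* by 1.35 (6.64e-06), the related inhibitor *Spint2* by 0.67 (4.03e-05) and *Prss8*, prostasin, by 1.19 (7.29e-05), while *Hgfac* and *Met* fell by 0.43 and 0.29. With WUSTL0717, *St14* fell by 0.92 (adjusted p = 0.00919) and none of the other 9 genes passed.

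Genes most like the 9 were ranked by the correlation with their mean standardized value over the 18 livers, each centred on its median. Among the first 10 were *Cldn7* (r = 0.99), *Nid1* (0.99), *Flna* (0.99), *Bicc1* (0.99), *Coro1a* (0.99), *Ddr1* (0.99), *Tagln2* (0.99), *Myof* (0.99) and *Scara3* (0.99), and 755 of 15892 genes (4.75%) had r above 0.9. With group means removed, r was 0.90 for *Cldn7*, 0.87 for *Flna*, and 0.80 to 0.85 for the other 7 genes named. *Cldn7* and *Bicc1* are of the biliary list, *Nid1* encodes a basement membrane protein, *Ddr1* a collagen receptor, *Coro1a* an actin regulator of leukocytes, and *Flna*, *Tagln2* and *Myof* proteins of the cytoskeleton or membrane.

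Markers of other liver cells moved with the same contrasts. Summed TPM here and in the next paragraph comes from batch-corrected values, so it compares liver groups and does not give abundance in liver. Hepatocyte genes were lower after SBR in 5 of 12, and in 12 of 12 relative to the library median, with summed TPM of 3297 to 4544 in sham, 1903 to 3738 in SBR vehicle and 3461 to 4534 in treated livers. Stellate cell and fibroblast genes were higher in 10 of 10, or 8 of 10 relative to the library median, led by *Col1a1* (3.36, adjusted p = 1.04e-08). The summed TPM of this list was 113 to 158 in sham, 365 to 635 in SBR vehicle and 233 to 420 in treated livers. With WUSTL0717, 4 of those 10 were lower on both scales, and 1 of 12 hepatocyte genes was higher, or 9 of 12 relative to the library median, where 11.5% of all genes were. Genes of cell division were higher in 6 of 6 after SBR (summed TPM 39.8 to 49.0 in sham, 61.8 to 142 in SBR vehicle). Relative to the library median 4 of 6 were. With WUSTL0717, 0 of 6 passed in limma and 2 of 6 had an unadjusted p under 0.05. The part of these cells in the rise of the 9 genes was not tested.

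Few genes of other epithelia passed the test. Of 7 pancreatic genes, 0 were called after SBR by limma and 0 had an unadjusted p under 0.05. *Cpa1*, a carboxypeptidase of acinar cells, lay at 1 shared lowest value in 15 of the 18 livers and reached 7.51 in SBR vehicle library 7. Library 7 lay within the range of the other SBR vehicle livers for all 9 duct genes, and all 9 were called without it (6038 of all genes). Of 8 intestinal genes, *Vil1*, villin, which cholangiocytes also carry, rose by 1.04 (adjusted p = 1.5e-05) and *Lgals4* by 0.52 (0.0365). Relative to the library median *Lgals4* did not pass (0.22, adjusted p = 0.298), and 1 of 8 was higher and 5 lower. With WUSTL0717, 1 of 8 passed, *Vil1*, which fell by 0.69 (adjusted p = 0.0149). *Sis* and *Cdx1* lay at 1 lowest value in 17 and 15 livers. The summed TPM of the 8 intestinal genes was 773 to 1023 in sham, 770 to 1437 in SBR vehicle and 1125 to 1395 in treated livers. Of the mesothelial markers, only *Upk1b* was in the table, at 1 lowest value in 12 livers. Kupffer cell genes were lower in 1 of 6 after SBR, or 4 of 6 relative to the library median, with summed TPM of 49.1 to 64.5 in sham and 30.2 to 88.7 in SBR vehicle livers. With WUSTL0717, 1 of those 6, *Clec4f*, was higher, or 4 of 6 relative to the library median, with summed TPM of 64.1 to 82.4. Sinusoidal endothelial genes were higher in 1 of 6 after SBR, with 1 higher and 3 lower relative to the library median, and summed TPM of 52.8 to 62.8 in sham and 48.0 to 83.1 in SBR vehicle livers.

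**Figure D5:**
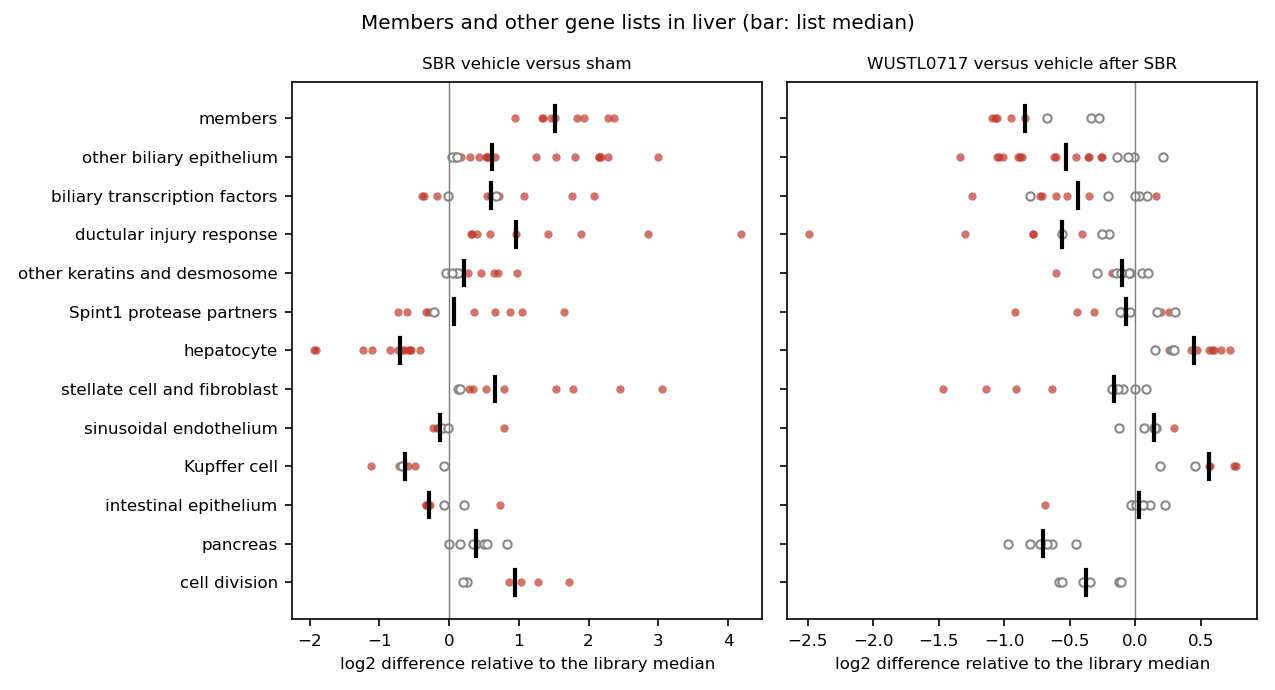
Log2 difference relative to the library median of each tested gene (point) of the 9 members and 12 other lists, for SBR vehicle against sham and for WUSTL0717 against vehicle, with the list median as a black bar; red points have an adjusted p below 0.05. The biliary lists lie to the right after SBR and to the left with WUSTL0717, the hepatocyte list does the opposite, and the members have medians of 1.52 and -0.84.

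In the intestine the 9 genes mark ordinary epithelium, and none was called in the duodenum (limma; 0, 0.258 and 0.802% of 15093 genes were called in the SBR, WUSTL0717 and WUSTL0717 against sham comparisons). At an unadjusted p under 0.05, 4, 0 and 3 of the 9 differed there. In the ileum 0 of 9 were called after SBR and 0 of 9 with WUSTL0717 (0.349% and 0.0697% of 15772 genes), with 4 and 0 at an unadjusted p under 0.05. The share of all genes at that threshold was not computed for either region, so these counts are no result about the 9 genes. *Krt23* was called in WUSTL0717 against sham ileum, where 2.17% of genes were. It read 0.98, 1.49 and 1.91 in sham, 3.55, 3.69, 2.95 and 3.45 in SBR vehicle and 3.28, 5.65, 3.04 and 3.97 in treated ileum. All 8 resected ilea were above all sham ilea, with differences of 1.95 for vehicle (adjusted p = 0.191) and 2.52 for WUSTL0717 (adjusted p = 0.0317). How many of all ileal genes separated in this way was not computed.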

How the data were processed

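RNA sequencing libraries of 40 samples were used, 18 of them from liver. The authors aligned reads to GRCm38 with STAR, counted uniquely aligned reads with featureCounts, scaled them with edgeR's TMM and as TPM, took log2, corrected the intestinal and liver batches with ComBat, and deposited 1 table of log2 TPM values. Its pseudocount and the terms protected in ComBat are not given in the sources used here. Read totals are absent from the values, so depth and counting precision are unknown.

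Genes with a liver mean of at least 1 (15901 of 15958) were fitted with limma 3.58.1 in R 4.3.3, with a variance trend and all 3 liver groups, and called at a Benjamini-Hochberg adjusted p under 0.05 over all genes tested. The fit was repeated with each library centred on its median, and intestinal libraries were fitted by region. Exact (two-sided) permutation tests over libraries were run for each of the 9 genes and for the keratin pairs. The fit was tested on simulated data. Summed TPM is the sum of 2 raised to each batch-corrected value, so it compares liver groups and is not an abundance.

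The 9 genes, the other lists and the alternatives were chosen with earlier results of these data known, and the keratin pairs after the values were seen. From each list, up to 4 genes with the smallest p are named, and called genes up to 6. Likeness was ranked over genes outside the 9. Some genes that these rules pick are not reported here. Lists were not tested as sets. Same-numbered libraries were checked for pairing: over 15 pairs, the correlation of deviations from group means ran from -0.20 to 0.17, so numbers were not taken to pair mice. Alternatives were other filters (none, 3), pseudocounts (5, 0.1), quantile normalization, library weights, no variance trend, an unmoderated two-sample test, fits of 2 groups, a replicate block and leaving out each library. Promoter sequences are RefSeq's (GRCm38.p6).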

Additional observations from a re-analysis of the deposited data

Results flagged for a closer look

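In liver, the highest or lowest library stood apart from its group in 2 of the 27 sets of values (9 genes in 3 groups) by Dixon's criterion, which chance alone meets in about 1 of 20. *Krt7* was 2.34 in sham library 4, against 1.95 to 2.04 in the other sham livers. *Sox9* was 2.97 in treated library 3, against 3.73 to 3.96 in the other treated livers.

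*Krt7*, *Sox9* and *Cd24a* moved in opposite directions in liver and duodenum, in that every resected library lay above the sham mean in liver and below it in duodenum. After SBR with vehicle, the duodenal differences were -1.0 for *Krt7*, -2.0 for *Sox9* and -2.14 for *Cd24a*. With WUSTL0717 they were -1.11 for *Krt7*, -2.15 for *Sox9* and -2.07 for *Cd24a*. None passed adjustment in the duodenum, where the median over all genes was -0.36 after SBR and -0.32 with WUSTL0717, and the difference between tissues was not tested. In liver the median over all genes was 0.25 and 0.27 in the same comparisons with sham. The share of all genes that met the same rule was not computed.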

How the results depend on the processing

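The 366 values recomputed under alternatives and the 432 with 1 library left out include counts of genes called as well as differences. No difference changed direction. Changes of filter, test, variance trend or groups fitted leave the difference itself unchanged, so its direction could not change there. Of the 366 and 432 values, 351 and 411 kept their side of the threshold or stayed within 1.5 times the count. After SBR, 9 of 9 genes were called under all alternatives and omissions, with a median difference of 1.52 to 2.00 (1.69 to 1.88 with 1 library left out). Calls over all genes then ran from 5399 without sham library 2 to 10462 with library weights, or 4180 of 9680 with a filter at 3. With WUSTL0717 against vehicle, 0 of 9 were called by the unmoderated two-sample test and 2 of 9 when only the 2 groups compared were fitted, which uses fewer libraries for the spread, against 8 with library weights. With 1 library left out 2 to 6 were called, where 93 to 1075 of all genes were. Relative to the library median 6 to 9 were called, where 2171 to 3692 of all genes were. The median difference ran from -1.02 to -0.72. *Sox9* and *Spint1* were called in 13 of 13 such fits, *Krt7*, *Epcam* and *Cd24a* in 10, *Krt23* in 4 and *Krt19*, *Krt8* and *Krt18* in 0. Against sham, treated livers had 9 of 9 called under all alternatives, where 3120 to 8387 of the genes tested were. With 1 library left out 7 to 9 were called relative to the library median, the share over all genes not being given here. Over all genes, the calls for WUSTL0717 against vehicle numbered 652, but 3133 relative to the library median, 2635 after quantile normalization, 2819 with library weights, 334 with a filter at 3, 148 with only the 2 groups compared and 0 by the two-sample test. With the replicate number as a block, 9, 6 and 9 genes were called in the 3 comparisons (5587, 485 and 6075 of all genes). Median differences were then 1.80, -0.87 and 1.18. The block changed no call of the 9 genes. Of 15 libraries, 3 correlated best with their own number.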
